A study of Mus musculus with 4 samples.

Results

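AP-1 is a family of basic leucine zipper transcription factors, and 10 of its genes were followed here through open chromatin: Fos, Fosb, Fosl1 and Fosl2, which encode the FOS proteins, Jun, Junb and Jund, which encode the JUN proteins, and Atf3, Batf and Jdp2, which encode related zipper proteins that pair with JUN. Their regulatory regions were taken as every peak of 4 deposited ATAC-seq peak lists whose summit lay within 50 kb of any annotated transcription start site (TSS) of a member. Overlapping peaks of the lists were merged, which gave 148 sites near the 10 genes, of 100608 sites in the genome. Only distance put a site with a gene: 72 of the 148 had a member as the nearest protein-coding TSS, and 2 lay near both Batf and Jdp2. A site is called open in a library where that library had a peak in it.

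FOS proteins cannot pair with each other and bind DNA as dimers with a JUN protein, at the heptamer TGAGTCA. JUN proteins can also form dimers among themselves, and ATF members steer the pair towards the longer CRE sequence TGACGTCA. Fos, Fosb, Jun, Junb and Atf3 are immediate early genes, which growth factors and stress switch on without new protein synthesis, whereas BATF and JDP2 lack a strong activation domain and can hold AP-1 targets down. In preadipocytes AP-1 is active while the cells divide, and its dimers are counted among the factors that shape the chromatin of the fibroblast-like state.

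The assay was ATAC-seq, in which Tn5 transposase inserts adapters into accessible DNA, on im-scWAT cells, a preadipocyte culture. The cells were the stromal vascular fraction of subcutaneous white fat of 5-week-old mice, all immortalised with SV40 large T antigen and selected with puromycin. The mice were Jmjd1a +/+ (WT) or Jmjd1a HY/HY (HY), the latter with a histidine-to-tyrosine change in the catalytic domain of JMJD1A, a histone H3 lysine 9 demethylase. Each genotype was measured on day 0 (D0) before differentiation and on day 8 (D8). Cells at D8 had received 2 days of indomethacin, dexamethasone, 3-isobutyl-1-methylxanthine, rosiglitazone, insulin and T3, and then 6 days of insulin, T3 and rosiglitazone, a mixture for beige adipocytes. There was 1 library for each of the 4 groups. The differences below therefore compare libraries, not conditions, no p-value is given, and each 95% interval covers counting error only. The genotypes were separate cultures, so that genotype and culture cannot be told apart.

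The strength of a peak is given as its summit pileup, the number of extended sequence tags over the summit, recovered from the deposited fold and p-value of each peak. The absolute number of tags is unknown, but the genome-wide background rate of each list gives the relative depth: D8 had 0.806 of the depth of D0 in WT and 0.698 in HY, and HY had 1.07 times the depth of WT at D0 and 0.931 times at D8. Ratios of pileups below were divided by these values. The promoters of the marker genes followed the labels. Of 8 adipocyte markers, 3 had a promoter peak at D0 and 7 at D8 in either genotype, with Ucp1 at none in any library, and of 7 preadipocyte and fibroblast markers 7 and 6 did at D0, in WT and HY, and 3 at D8 in both. The 4 macrophage markers had none in any library. Of the 4 endothelial markers, 3 were open at D0 and 0 at D8 in WT, and 2 and 1 in HY, and their part in the results below was not tested.

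The sequences shown are those of 2 promoters that stayed open and of 6 distal sites that were open on 1 day in both genotypes. All are from the mouse mm9 reference, written 5′ to 3′. The promoter stretches run from -320 to -21 bp of the TSS of Fos (chr12:86814520-86814819, plus strand) and Fosb (chr7:19895415-19895714, minus strand), and are shown because each holds a CArG box, the core of the serum response element that switches immediate early genes on. The capitals mark that box.
Fos promoter: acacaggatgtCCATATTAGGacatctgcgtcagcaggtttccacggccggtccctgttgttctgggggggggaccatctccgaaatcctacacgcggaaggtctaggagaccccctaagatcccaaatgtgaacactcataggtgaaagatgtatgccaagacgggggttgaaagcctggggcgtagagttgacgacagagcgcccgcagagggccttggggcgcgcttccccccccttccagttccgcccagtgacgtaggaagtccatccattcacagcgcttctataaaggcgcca
Fosb promoter: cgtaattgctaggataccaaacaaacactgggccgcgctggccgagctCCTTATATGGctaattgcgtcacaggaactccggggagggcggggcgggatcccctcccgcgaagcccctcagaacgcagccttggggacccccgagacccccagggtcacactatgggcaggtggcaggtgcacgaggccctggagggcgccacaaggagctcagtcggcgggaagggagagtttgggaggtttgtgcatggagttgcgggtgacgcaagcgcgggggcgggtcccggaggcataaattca
A CArG box was found in 1.55% of the 69965 windows of the same length and place at TSSs of protein-coding genes, many of which overlap.

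The distal sequences reach 100 bp to each side of the strongest summit, on the plus strand. The first 3 were open only at D0 and hold the AP-1 heptamer, TGAGTCA or TGACTCA on the other strand, in capitals. They lie upstream of Junb (chr8:87509604-87509804), Atf3 (chr1:193040010-193040210) and Fosb (chr7:19902205-19902405), each between genes.
Junb at -7.1 kb: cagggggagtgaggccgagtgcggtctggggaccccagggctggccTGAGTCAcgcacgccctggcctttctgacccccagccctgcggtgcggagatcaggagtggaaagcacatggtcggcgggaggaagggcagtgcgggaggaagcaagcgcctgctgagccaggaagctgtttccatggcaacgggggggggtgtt
Atf3 at -32.9 kb: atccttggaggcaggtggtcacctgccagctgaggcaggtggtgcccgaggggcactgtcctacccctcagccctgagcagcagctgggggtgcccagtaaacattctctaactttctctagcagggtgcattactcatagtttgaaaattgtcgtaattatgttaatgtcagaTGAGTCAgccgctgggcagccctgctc
Fosb at -6.9 kb: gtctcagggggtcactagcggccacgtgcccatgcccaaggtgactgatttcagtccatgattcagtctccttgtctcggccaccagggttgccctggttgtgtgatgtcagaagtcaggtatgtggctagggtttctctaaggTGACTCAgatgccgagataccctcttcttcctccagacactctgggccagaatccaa
The next 3 were open only at D8 and hold a match to TTGCNNAA, or its reverse, the sequence of C/EBP factors that drive adipocyte differentiation, again in capitals. They lie in an intron of Fosl2 (chr5:32440906-32441106), in an intron of Jdp2 (chr12:86955073-86955273) and between Jdp2 and Batf (chr12:86984730-86984930).
Fosl2 at 2.2 kb: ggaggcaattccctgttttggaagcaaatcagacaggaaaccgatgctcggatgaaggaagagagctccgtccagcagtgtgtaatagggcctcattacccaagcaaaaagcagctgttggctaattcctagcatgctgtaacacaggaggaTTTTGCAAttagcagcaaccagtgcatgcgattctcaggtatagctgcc
Jdp2 at 14.2 kb: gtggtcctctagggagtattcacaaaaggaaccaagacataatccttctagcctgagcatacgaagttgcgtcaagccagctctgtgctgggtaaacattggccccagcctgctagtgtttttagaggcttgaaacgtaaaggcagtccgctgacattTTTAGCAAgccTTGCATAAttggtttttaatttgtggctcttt
Batf at -42.8 kb: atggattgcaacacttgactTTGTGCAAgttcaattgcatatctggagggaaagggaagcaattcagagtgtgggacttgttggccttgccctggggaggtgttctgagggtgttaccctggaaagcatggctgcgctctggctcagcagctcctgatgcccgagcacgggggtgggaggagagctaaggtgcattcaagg
Here and below a negative distance is upstream of the nearest TSS of the gene. These distal sites were picked for the motifs they hold. The heptamer was found at 7 of 25 such windows open only at D0 (28%, against 26.3% over the genome). The C/EBP sequence was found at 4 of 7 open only at D8 (57.1%, against 26.9%). Within 50 bp of the summit these counts fell to 2 (8%, against 18.1%) and 0 (against 12.6%).

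The promoters of 9 of the 10 genes were open in every library, on both days and in both genotypes, and Batf had no promoter peak in any of the 4. At Fos, whose product is the founding FOS protein, the promoter site had a summit pileup of 55 at D0 and 59 at D8 in WT, and 47 and 48 in HY. At Jun, the founding JUN gene, the same 4 values were 72, 68, 84 and 71. At Fosl2, which encodes FRA2, a FOS protein without the strong activation domain of FOS, the larger of 2 promoter sites had 74, 66, 85 and 70, and the smaller 33, 28, 39 and 29. At Fos the D8 values were as high as those at D0, and at Jun and Fosl2 they were somewhat lower, in libraries of lower depth. Fosb had 30, 31, 42 and 32, Junb 53, 48, 58 and 48, and Jund, the steadily expressed JUN gene, 57, 58, 62 and 56. The promoter of Atf3, a stress-induced gene, had 67, 60, 80 and 56. Scaled for depth, D8 over D0 for Fos was 1.33 in WT (95% interval 0.906 to 1.96) and 1.46 in HY (0.958 to 2.23), and between 1.00 and 1.29 in both genotypes for the main sites of Fosb, Fosl2, Jun, Junb, Jund and Atf3. Each of these intervals included 1.

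Fosl1 and Jdp2 were the genes whose promoters had the lower D8 pileups. At Fosl1, which encodes FRA1, a FOS protein prominent in migrating cells, the site over the TSS had 27 at D0 and 13 at D8 in WT, and 30 and 14 in HY. The D8 values lay below the D0 values in both genotypes, with depth-scaled ratios of 0.598 for WT (0.283 to 1.20) and 0.668 for HY (0.327 to 1.3). The centre of this site fell outside the promoter rule, and it was added after its values were seen because it covers the TSS. At Jdp2 the main promoter site had 37, 22, 38 and 23, with ratios of 0.738 (0.415 to 1.28) and 0.867 (0.493 to 1.49). A second Jdp2 site, at a downstream TSS, had 18 at D0 and no peak at D8 in WT, and 15 on either day in HY. Between genotypes, the depth-scaled ratio of HY to WT at the promoters ran from 0.776 to 1.3 at D0 and from 0.874 to 1.16 at D8, and each interval included 1. The direction between days depends on the measure: by the deposited fold over local background, which was divided by a larger local rate where signal surrounds the summit, D8 over D0 was 0.86 in WT and 0.753 in HY for Fos, 0.856 and 0.869 for Jun, 0.756 and 0.76 for Jund, and 1.01 and 1.1 for Fosl1.

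**Figure D1:**
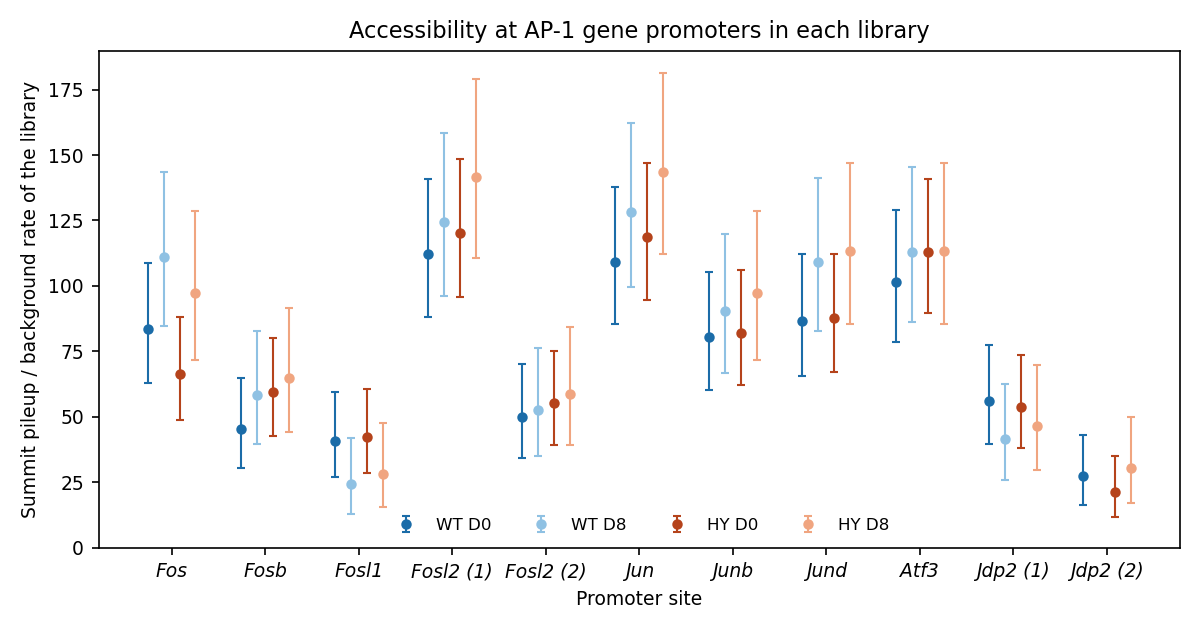
Summit pileup divided by the background rate of the library (y axis, no unit) at the promoter sites of 9 AP-1 genes (x axis), in WT D0, WT D8, HY D0 and HY D8, with 95% Poisson intervals for counting error as bars; Batf has no site. At Fos, Jun and Jund the D8 points lie above the D0 points in both genotypes with overlapping bars, and at Fosl1 they lie below.

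The first comparison asked which sites near the AP-1 genes appear or disappear as the cells differentiate. In WT, 117 of the sites were open at D0 and 77 at D8. Of the D0 sites, 50 (42.7%, 33.6% to 52.2%) had no D8 peak, against 60.0% of D0 sites over the genome. Of the D8 sites, 10 (13.0%, 6.41% to 22.6%) had no D0 peak, against 25.7%. HY showed the same order. Of 121 D0 sites, 43 (35.5%, 27.0% to 44.8%) had no D8 peak, against 57.1% over the genome, and of 93 D8 sites 15 (16.1%, 9.32% to 25.2%) had no D0 peak, against 27.0%. Near the AP-1 genes more sites were thus open at D0 alone than at D8 alone in both genotypes, and the part that changed was below that of the genome. Scaled for depth, 45 of the 50 WT sites and 39 of the 43 HY sites that were open at D0 alone would have reached the pileup needed for a call at D8, and a site of the size of the other 5 and 4 was not detectable at that depth. The lists also differ in length. With each shortened to its 41228 strongest peaks, the sites open at D0 alone came to 25.9% in WT (42.5% over the genome) and 21.6% in HY (40.5%). Those open at D8 alone came to 23.1% (37.4%) and 31% (36.5%), so that the order of the days turned in HY.

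Strength moved with these shares. The sites near AP-1 genes had a median pileup of 24 (WT) and 26 (HY) at D0, against 15 over all sites of either list, and 28.2% and 28.1% of them lay at a promoter of some gene, against 18.6% and 17.3%. The D0 sites were therefore also read in 3 ranges of D0 pileup, a choice made after the values were seen. In WT, 78.6% (59% to 91.7%) of the sites with a pileup under 15 had no D8 peak, against 83.7% over the genome. For pileups from 15 to below 30 the share was 56.1% (39.7% to 71.5%) against 52.7%, and for 30 or more 10.4% (3.47% to 22.7%) against 12.3%. In HY the shares were 70.4% (49.8% to 86.2%) against 82.4%, 39.5% (25% to 55.6%) against 51.1%, and 13.7% (5.7% to 26.3%) against 10.8%. In each of these ranges the genome-wide share lay within the interval of the AP-1 sites. Apart from promoters, 45 of 84 distal D0 sites (53.6%) in WT and 38 of 87 (43.7%) in HY had no D8 peak, against 68.5% and 64.4% over the genome.

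**Figure D2:**
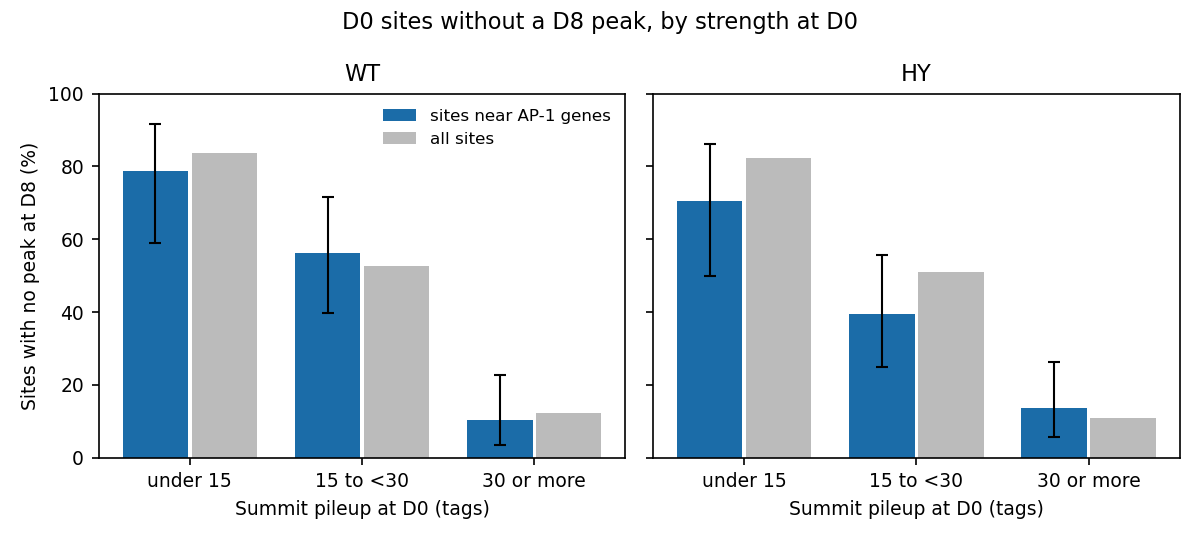
Share of D0 sites with no peak at D8 (y axis, %) in 3 ranges of the D0 summit pileup (x axis, tags), for the sites near AP-1 genes (blue, with exact binomial 95% intervals) and all sites of the genome (grey), in WT (left) and HY (right). In both genotypes the share is highest under a pileup of 15, at 78.6% and 70.4% near AP-1 genes, and lowest at 30 or more, at 10.4% and 13.7%.

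Across the 4 libraries, 62 of the 148 sites (41.9%) were open in all, against 24.2% of all sites. Another 25 (16.9%) were open at D0 in both genotypes and at D8 in neither, against 24.6%, and 7 (4.73%) were open at D8 in both and at D0 in neither, against 5.99%. The 62 sites had a median pileup of 35.5 (WT) and 40 (HY) at D0, beside 29 and 33 for all sites of the genome open in every library. The 25 had medians of 16 and 18, with the lowest at 6 and 7 and the highest at 41 and 42, beside medians of 11 and 13 over the genome for the same combination of libraries. None of the 25 and none of the 7 lay at the promoter of an AP-1 gene. Among sites open on both days, changes of size were few. In WT, 3 of 67 (4.48%, 0.933% to 12.5%) were at least 2-fold higher at D0, against 14.7% over the genome. At D8, 1 (0.0378% to 8.04%) was at least 2-fold higher, against 4.78%. In HY, 8 of 78 (10.3%, 4.53% to 19.2%) were at least 2-fold higher at D0, against 17.2%. At D8, 2 (0.312% to 8.96%) were, against 5.27%. Only for WT sites higher at D0 did the genome share lie outside the interval, and that gap depended on the measure. By the deposited fold, 4 of 67 WT sites (5.97%) were at least 2-fold higher at D0, against 5.97% over the genome. In HY the same fold gave 5 of 78 (6.41%), against 10.6%. It gave 0% higher at D8 in either genotype, against 1.24% and 1.33%. The median depth-scaled ratio of D8 to D0 over the sites open on both days was 0.99 in WT and 0.99 in HY, against 0.896 and 0.884 over the genome.

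**Figure D3:**
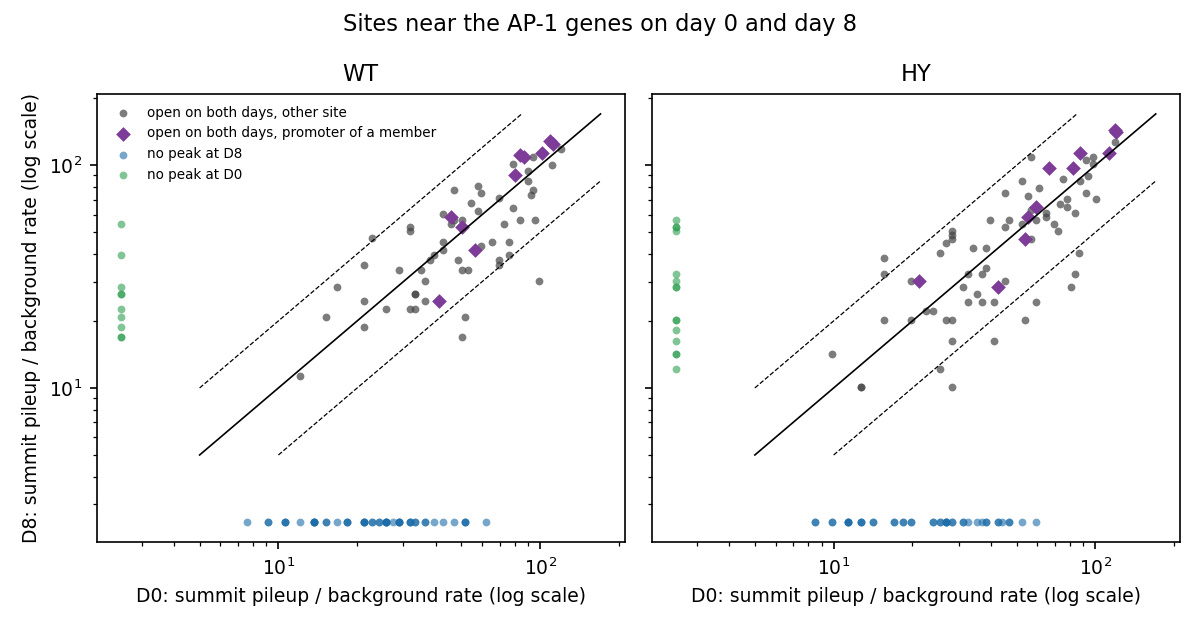
Summit pileup over background rate at D0 (x axis) and D8 (y axis), both on log scales, for each site near the AP-1 genes in WT (left) and HY (right); the solid line marks equality and the dashed lines a 2-fold difference, and sites with no peak on a day are drawn along the margin at an arbitrary position. The promoter sites of members with a peak on both days (diamonds) lie between the dashed lines, the second Jdp2 promoter site is among those without a D8 peak in WT, and 50 WT and 43 HY sites sit on the lower margin against 10 and 15 on the left.

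Fos had 11 sites, with 10 open at D0 and 5 at D8 in WT, and 10 and 7 in HY, and for all 11 it was the nearest gene. Upstream, the site at -18.4 kb was the strongest distal site of the gene, with 79 tags at D0 and 63 at D8 in WT, and 69 and 50 in HY, and depth-scaled ratios of D8 to D0 of 0.99 (0.699 to 1.40) and 1.04 (0.706 to 1.52). The days thus differed there by less than counting error. The other side of the gene differed. At 23.0 kb (chr12:86838342-86839272) the pileup was 65 at D0 and 16 at D8 in WT, and 57 and 14 in HY. The D8 pileups were far below the D0 pileups in both genotypes, at 0.306 (0.165 to 0.534) and 0.352 (0.181 to 0.639) of them after scaling, and at 0.608 and 0.665 by the deposited fold. Between the gene and this site, 3 sites were open only at D0: 12.1 kb, with 22 tags in WT and 22 in HY, 13.0 kb, with 14 and 20, and 17.3 kb, with 22 and 19. The first of them lay 444 bp from a D8 peak in WT and 459 bp in HY. A further D0 site lay at -11.4 kb, with 10 and 9 tags. The site at 11.1 kb, beside this group, was open in all libraries, with 52, 54, 40 and 54 tags. Its ratios of D8 to D0 were 1.29 (0.864 to 1.92) in WT and 1.93 in HY (1.26 to 2.99), higher at D8 in HY beyond counting error. By the deposited fold they were 1.01 and 1.3. Among the 78 HY sites open on both days, 4 such intervals lay above 1 and 7 below. Fos had no site open at D8 in both genotypes and at D0 in neither.

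Fosb had 20 sites in a gene-dense stretch, and was the nearest gene to 9. Open sites numbered 18 at D0 and 15 at D8 in WT, and 18 and 17 in HY, and 13 were open in all libraries. Its strongest distal site was at -49.4 kb, in an intron of Ppp1r13l, with 63 tags at D0 and 30 at D8 in WT, and 55 and 32 in HY. The site at 40.2 kb, in an intron of Vasp, had 33, 9, 42 and 12 tags. There the D8 libraries were lower in both genotypes, with ratios of 0.339 (0.142 to 0.723) and 0.409 (0.196 to 0.792), or 0.469 and 0.675 by the deposited fold. Open only at D0 were the site at -6.9 kb whose sequence is given above, with 12 tags in WT and 17 in HY, and the site at -32.2 kb near Ercc1, a DNA repair gene, with 24 and 18. Open only at D8 was the site at 8.4 kb, with 21 and 25 tags, which lay 239 bp from a D0 peak in WT and 185 bp in HY.

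Fosl1 had the most sites, 27, yet was the nearest gene to only 4. Its site at -2.6 kb (chr19:5444965-5445494) had 46 tags at D0 and 19 at D8 in WT, and 59 and 16 in HY. It was lower at D8 in both genotypes, with ratios of 0.513 (0.284 to 0.892, WT) and 0.388 (0.209 to 0.684, HY), while the deposited fold gave 0.831 and 0.61. Within the gene, an intron site at 1.2 kb had 27 tags in HY D0 and no peak in the other libraries. The strongest site in the window, at 41.5 kb near Mus81, had 73, 53, 84 and 63 tags. Open only at D0 in both genotypes were 24.4 kb near Efemp2, with 28 tags in WT and 31 in HY, -38.4 kb, with 24 and 27, and -39.1 kb, with 17 and 19, the latter both in an intron of 4930481A15Rik.

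Fosl2 had 10 sites and the strongest site that was open only at D8. That site, in the Fosl2 intron at 2.2 kb (chr5:32440851-32441093), had no peak in either D0 library, 29 tags in WT D8 and 28 in HY D8. A neighbour at 2.5 kb was open in HY D8 alone, with 26 tags. Upstream at -2.7 kb the strongest distal site had 52, 34, 53 and 43 tags, and was open on both days. Downstream at 27.4 kb a site open only at D0, which holds a CArG box, had 16 tags in WT and 8 in HY. The site at -46.8 kb had 21 tags at D0 and no peak at D8 in WT, and 20 and 5 in HY.

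Jun lies in a gene-poor stretch, with 8 sites, 5 open at D0 and 3 at D8 in WT, and 6 and 7 in HY. Its strongest distal site was at -46.1 kb, in an intron of the non-coding neighbour BC042782, with 26 tags at D0 and no peak at D8 in WT, and 38 and 10 in HY. The HY ratio of D8 to D0 was 0.377 (0.167 to 0.771), and 0.57 by the deposited fold. In the same intron, -42.6 kb was open only at D8, with 10 tags in WT and 14 in HY, and -30.7 kb had 15 tags at D0 and 25 at D8 in WT, and 18 and 20 in HY. This last site was the one of the 67 that was 2-fold higher at D8 in WT, with 2.07 (1.05 to 4.22), and its HY ratio was 1.59. By the deposited fold the WT ratio was 1.36. On the other side, the site at chr4:94692646-94692929 was open only at D0, with 9 and 20 tags.

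Junb had 20 sites, 19 of them open at D0 and 13 at D8 in WT, and 17 and 12 in HY, and no site that was open at D8 alone in either genotype. Its strongest distal site, at -1.5 kb, had 62 tags at D0 and 41 at D8 in WT, and 71 and 35 in HY. Upstream followed the site at -7.1 kb (chr8:87509147-87509876), nearest to Hook2, with 34 tags (WT) and 42 (HY) at D0 and no peak at D8 in either genotype. The pileup was well above what a call at D8 needed, and the sequence above shows its AP-1 heptamer. The site at -10.8 kb was also open only at D0, with 31 and 33 tags, but lay 260 bp from a D8 peak in WT and 235 bp in HY, at the neighbouring site of -11.8 kb. A further weak site, at 41.3 kb, had 9 and 8.

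Jund had 19 sites, with 12 open at D0 and 9 at D8 in WT, and 18 and 11 in HY. Its strongest site away from its own promoter, over the 5′ UTR of Lsm4 at -24.4 kb, had 62, 58, 69 and 54 tags. Open only at D0 were -25.8 kb, with 41 tags in WT and 30 in HY, -48.1 kb in the 3′ UTR of Pgpep1, with 34 and 18, 11.6 kb, with 14 and 23, and 45.5 kb, with 9 and 10. These were the largest such group near a JUN gene, and the first had the highest pileup in WT of the 25. Open only at D8 was -30.5 kb, with 15 tags in WT and 10 in HY. At chr8:73211588-73211854, upstream of Jund, the pileup was 14 at D0 and 13 at D8 in WT, and 11 and 19 in HY. The ratios of D8 to D0 were 1.15 in WT and 2.47 in HY (1.12 to 5.75), and their difference was not tested. By the deposited fold they were 0.801 and 1.77.

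Atf3 had 10 sites, 7 open at D0 and 4 at D8 in each genotype. The strongest distal site, at -41.6 kb in an intron of D730003I15Rik, had 39 tags at D0 and 40 at D8 in WT, and 40 and 31 in HY. Beside it, -42.2 kb was open only at D8, with 14 tags in WT and 15 in HY, 347 bp and 201 bp from a D0 peak. Open only at D0 were -32.9 kb, with 14 and 25 tags, 41.9 kb, with 8 and 8, and -6.8 kb, with 6 and 7. Of these, -32.9 kb and -6.8 kb hold the AP-1 heptamer within 100 bp of the summit.

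Batf, which is best known from lymphocytes, had no promoter peak and 8 sites. Its strongest site, in its own intron at 19.0 kb, had 35 tags at D0 and 18 at D8 in WT, and 23 and 16 in HY. A further intron site at 11.7 kb had 25, 20, 27 and 21. The gene body was thus open at these places in all libraries although the promoter had no call. The site at -42.8 kb, shared with Jdp2, was open only at D8, with 14 tags in WT and 9 in HY.

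Jdp2 had 17 sites and was the nearest gene to 16. Open sites numbered 12 at D0 and 5 at D8 in WT, and 11 and 10 in HY. Within the gene, sites open only at D0 at 4.8 kb (19 tags in WT, 17 in HY), 19.6 kb (10 and 9) and 23.8 kb (9 and 7) stood around 1 open only at D8, at 14.2 kb (12 and 7), so that intron sites of opposite behaviour lay within 10 kb. A further D0 site lay at -6.3 kb, with 16 and 10 tags. In the 3′ UTR at 39.4 kb, the strongest distal site had 34 tags at D0 and 11 at D8 in WT, and 20 and 8 in HY. The D8 value was lower in WT, with a ratio of 0.402 (0.184 to 0.812), while the HY ratio of 0.573 was within counting error of 1 (0.218 to 1.36). These intervals overlap, and the difference between the genotypes was not tested. By the deposited fold the ratios were 0.372 in WT and 0.471 in HY.

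**Figure D4:**
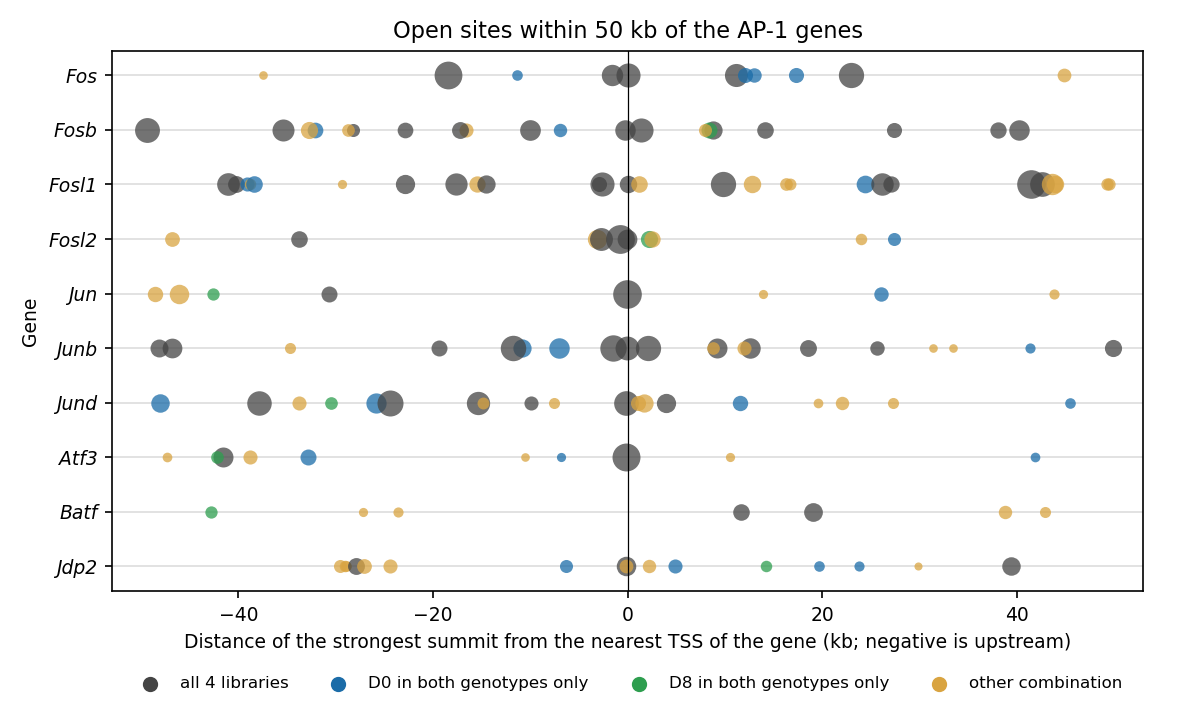
The sites near each AP-1 gene (y axis) by the distance of the strongest summit from the nearest TSS of the gene (x axis, kb), with the area of a point growing with its highest summit pileup and the colour giving the libraries in which it was open. The 25 sites open at D0 alone in both genotypes (blue) are spread over 9 of the genes and the 7 open at D8 alone (green) over 7, and no promoter of an AP-1 gene is among them.

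The sequence under the summits was then compared between these groups, in the windows of 100 bp to each side. The AP-1 heptamer was found at 25 of the 148 sites (16.9%, 11.2% to 23.9%), against 18.2% of all sites. It was found at 7 of the 25 sites open at D0 alone (28%, 12.1% to 49.4%), against 26.3% of all such sites, at 4 of the 62 open in all libraries (6.45%, 1.79% to 15.7%), against 13.3%, and at 1 of the 7 open at D8 alone, against 5.24%. In the 3 groups and in all, the share over the genome lay within the interval, or for the 7 sites within 0.361% to 57.9%. These counts depend on the window: within 50 bp of the summit the heptamer was found at 2 of the 25 sites (8%), against 18.1%, and at 0 of the 7, against 2.87%, and over the whole site at 6 of the 25 (24%), against 31.7%, at 13 of the 62 (21%), against 21.5%, and at 0 of the 7, against 7.38%. The 7 sites open at D0 alone with a match within 100 bp were Fosb at -6.9 and -32.2 kb, Junb at -7.1 kb, Atf3 at -6.8 and -32.9 kb and Jdp2 at -6.3 and 19.6 kb. The C/EBP sequence was found at 4 of the 7 sites open at D8 alone (57.1%, 18.4% to 90.1%), against 26.9%, and at 0 of the 25 open at D0 alone, against 8.82%. Within 50 bp of the summit it was found at 0 of the 7, against 12.6%, and over the whole site at 4 of the 7, against 33.8%, and at 3 of the 25, against 14.6%. The 4 sites within 100 bp were Fosl2 at 2.2 kb, Jund at -30.5 kb, Jdp2 at 14.2 kb and Batf at -42.8 kb. The CArG box was found at 6 of the 148 sites (4.05%, 1.5% to 8.61%), against 1.5%, and the CRE at 2 (1.35%), against 0.686%. The 13-letter elements of PPAR:RXR and of the glucocorticoid receptor, searched by name, had 0 matches in the 148 windows, against 0.374% and 0.448%. In the promoter sites, the heptamer was found 197 bp after the TSS of Fosl1 and 320 bp after that of Atf3, and at -615 bp of Fosl2, and a CRE at -219 bp of Jund. Base composition moved with the groups: the median GC content of the windows was 53.2% at the D0 sites, 48.8% at the D8 sites and 63.5% at the sites open in all libraries.

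WT and HY were then compared on each day, which asks whether the catalytically inactive JMJD1A goes with other open sites at these genes. At D0, 15 of the 117 WT sites (12.8%, 7.36% to 20.3%) had no HY peak, against 15.4% over the genome, and 19 of the 121 HY sites (15.7%, 9.73% to 23.4%) no WT peak, against 24.7%. At D8, 4 of 77 WT sites (5.19%, 1.43% to 12.8%) had no HY peak, against 12.9%, and 20 of 93 HY sites (21.5%, 13.7% to 31.2%) no WT peak, against 29.0%. The HY lists were the longer ones on both days, and keeping only peaks whose -log10 q reached 5, the D8 shares were 11.8% (8 of 68) for WT alone and 13% (9 of 69) for HY alone, against 14.6% and 21.6%. With lists cut to the same length the order at D0 turned, to 10 of 81 (12.3%) for WT alone, against 16.9%, and 3 of 74 (4.05%) for HY alone, against 18.4%. No site was open in WT alone on both days, against 0.322% over the genome, which is too rare for a count of 0 in 148 to say anything of these genes, and 2 were open in HY alone on both days: Jun at 43.8 kb, with 9 and 5 tags, and Jdp2 at -29.5 kb, with 16 and 11. Both were weak, and the share of 1.35% stood beside 0.899% over the genome.

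At sites open in both genotypes the levels were close, with a median depth-scaled ratio of HY to WT of 1.02 at D0 and 1.07 at D8, against 1.06 and 1.11 over the genome. At D0, 1 of 102 (0.980%) was at least 2-fold higher in HY, against 2.23%, and 2 (1.96%) in WT, against 1.41%. The site higher in HY was Jun at chr4:94692646-94692929, downstream of the gene, with 20 tags against 9 and a ratio of 2.07 (0.901 to 5.16). The sites higher in WT were Jund at -48.1 kb, with 34 tags in WT and 18 in HY and a ratio of 0.493 (0.262 to 0.898), and Fosl2 at 27.4 kb, with 16 and 8 tags. All 3 were among the sites with no D8 peak. At D8, 0 of 73 sites were at least 2-fold higher in HY, against 1.68%, and 1 (1.37%) in WT, against 0.512%: Jund at 27.3 kb, with 11 tags in WT and 5 in HY. Jdp2 had the largest difference in the number of open sites between genotypes at D8 among the 10 genes, 5 in WT and 10 in HY. Of its HY sites without a WT peak the highest pileup was 15, at the second promoter.

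Other genes of the pathway were read from 3 lists, by the highest peak that overlaps the promoter in each library. The same reading gave the AP-1 genes a median depth-scaled ratio of D8 to D0 of 1.11 in WT and 1.09 in HY over 9 promoters, none at least 2-fold lower at D8. For Junb this reading took the peak of the neighbouring site at -1.5 kb at D0, so that its ratios of 0.961 and 0.968 join different sites, whereas the promoter site itself had 1.12 and 1.19. Over all protein-coding genes the medians were 0.971 and 1.01, and 4.91% and 5.23% of promoters open on both days were at least 2-fold lower at D8. The 23 partners and upstream regulators (MAF proteins, MAP kinases, the ternary complex factors and SRF that bind the CArG box, and dual-specificity phosphatases) had a promoter peak in all libraries, with medians of 1.03 and 1.14. Their strongest promoters were Dusp10, with 80 tags at D0 and 79 at D8 in WT, and 87 and 73 in HY, and Atf7, with 78, 65, 87 and 69. Dusp6, a phosphatase that feeds back on ERK, had 64, 30, 76 and 29, and ratios of 0.582 (0.364 to 0.911) and 0.546 (0.343 to 0.848). The 12 other immediate early genes were open in all libraries too, with medians of 0.994 and 1.16. Nr4a1 had 66, 54, 70 and 50 tags and Myc 54, 43, 68 and 50. Ctgf, named after its values were seen, had 56, 13, 52 and 17, the lowest ratio of that list at 0.288 for WT (0.145 to 0.533) and 0.468 for HY (0.254 to 0.823).

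The 12 genes known as AP-1 targets in other cells had lower ratios than the AP-1 genes themselves, a difference that was not tested. Their promoters were open for 10 at D0 and 9 at D8 in both genotypes, and the median ratio of D8 to D0 was 0.573 in WT and 0.56 in HY. All 9 ratios lay below 1 in both genotypes, against 54.6% (WT) and 47.9% (HY) of all protein-coding genes. In each genotype 3 of 9 (33.3%) were at least 2-fold lower, against 4.91% and 5.23% of all genes, 8.7% (WT) and 4.35% (HY) of the partners and 16.7% and 8.33% of the other immediate early genes. By the deposited fold 7 of the 9 ratios lay below 1 in each genotype, as did 7 of the 9 of the AP-1 genes, which is near the 63.7% and 65.1% over all genes. Fn1, the gene of the matrix protein fibronectin, had 59 tags at D0 and 21 at D8 in WT, and 69 and 29 in HY, with ratios of 0.442 (0.255 to 0.738) and 0.602 (0.376 to 0.941). Cd44, the hyaluronan receptor, had 37, 14, 52 and 15 tags, and Timp1, an inhibitor of matrix proteases, 41, 12, 47 and 11. Hmox1, the heme oxygenase gene, had 44, 28, 47 and 31, with ratios of 0.79 and 0.945 that included 1 in their intervals. The medians by the deposited fold also lay closer together, at 0.837 and 0.777 for the target genes, 0.908 and 0.849 for the AP-1 genes and 0.936 and 0.929 for all genes. Within 50 kb, 56.3% of D0 sites near the target genes had no D8 peak in WT and 50% in HY, below the 60.0% and 57.1% over the genome. The shares were 48% and 47% near the partners and 41.7% and 42.2% near the other immediate early genes. The markers of preadipocytes and fibroblasts also had fewer promoter peaks at D8, as given above, and their part in the values of the target genes was not tested.

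**Figure D5:**
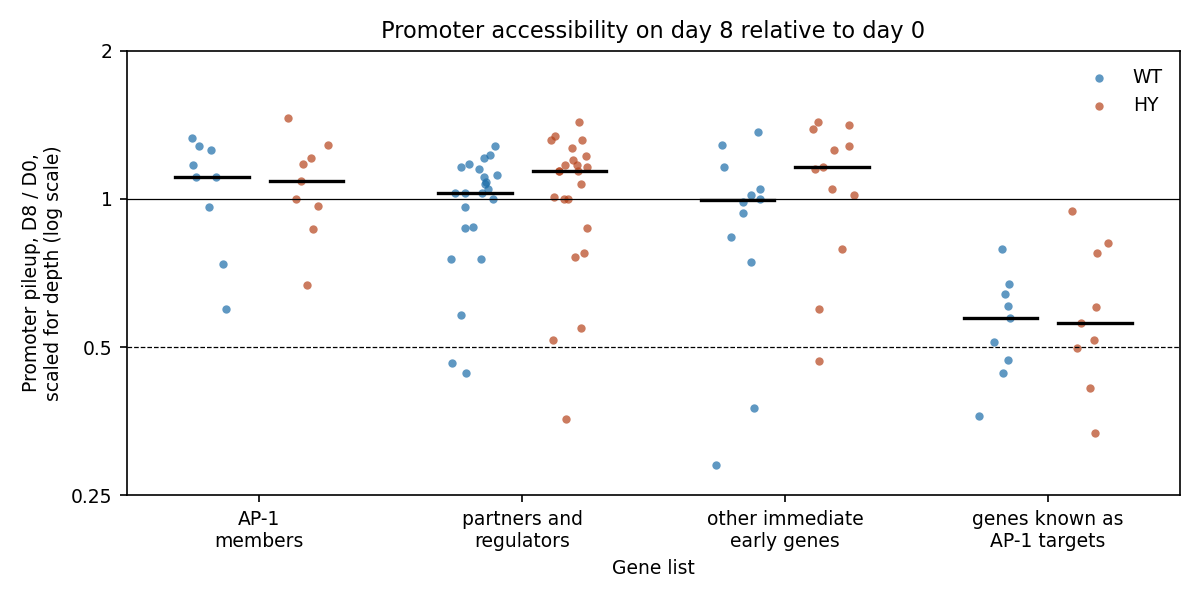
Depth-scaled ratio of the promoter pileup at D8 to that at D0 (y axis, log scale) for each gene of 4 lists (x axis) with a promoter peak on both days, in WT (blue) and HY (red), with medians as black bars and lines at ratios of 1 and 0.5. The target genes have medians of 0.573 and 0.56 and no point above 1, and the AP-1 genes medians of 1.11 and 1.09.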

How the data were processed

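ATAC-seq peak lists of 4 im-scWAT libraries (WT and HY, day 0 and day 8) were analysed, each deposited in the 10-column narrowPeak layout and called on 1 library. The submitters' processing notes name Bowtie2, SAMtools, Picard and deepTools and the mm9 build, and the study, which states that its ChIP-seq data were processed in the same way, names HOMER and MACS3 as peak callers there; the peak values fitted the formulas of MACS. Versions, the calling threshold and any shift for the Tn5 offset are not given in the sources used here. The fold column deposited by the authors is the ratio of summit pileup to local background, with a pseudocount of 1, and is not normalised between lists. The -log10 p and -log10 q columns were deposited as the peak caller gave them. The deposited score column, a rescaled q-value, was not used. Pileup and local background were solved from fold and -log10 p, within 0.002 of the deposited value for every peak, which was tested on simulated peaks. At 2 of the 148 sites a further solution existed. The lowest background of a list served as its depth.

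Peaks overlapping by 1 bp were merged into sites, 21 of which held several peaks of 1 list. A promoter site is one centred between 1000 bp before and 100 bp after a TSS (NCBIM37 with GENCODE annotation). The lists fitted this build, with 0 of 21 chromosomes having a peak beyond their end. Intervals are exact binomial (shares), conditional binomial (ratios) and Poisson (pileups) at 95%. For each gene the promoter, the day-specific and genotype-specific distal sites (up to 6) and the strongest distal site were named, and from each list of other genes the strongest promoters. The members and lists were chosen with earlier results of these data known. Python 3.11.15, pandas 2.3.3, SciPy 1.17.1, pysam 0.24.0 and BEDTools 2.31.1 were used. Alternatives changed the peak threshold, list length, overlap rule, window, TSS set, scaling, measure, fold and motif window.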

Additional observations from a re-analysis of the deposited data

Results flagged for a closer look

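At 2 weak sites WT and HY moved in opposite directions between the days. The site near Fosl1 at 49.5 kb (chr19:5497137-5497321), in an intron of Snx32, had no peak in WT D0, a pileup of 9 in WT D8 and of 14 in HY D0, and no peak in HY D8. The site near Jdp2 at 2.2 kb (chr12:86943155-86943328), in an intron of Jdp2, had a pileup of 17 in WT D0, no peak in WT D8 or HY D0, and 14 in HY D8. The difference between the genotypes was not tested, as each group is 1 library. Over the genome 0.306% and 0.415% of sites had these combinations, against 0.676% and 0.676% of the 148.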

How the results depend on the processing

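No paired analysis was possible because each group has 1 library. Of 174 values recomputed under an alternative setting, 141 moved by less than their interval and 33 by more. Among the 33 are 5 promoter ratios of D8 to D0 that fell below 1 with the deposited fold: Fos (0.86 in WT, 0.753 in HY), Jund (0.756 and 0.76) and Jun (0.869, HY). With lists of the same length, the sites open at D0 alone came to 25.9% in WT (42.5% over the genome) and 21.6% in HY (40.5%), those at D8 alone to 23.1% in WT (37.4%) and 31% in HY (36.5%), and HY-only sites at D0 to 4.05% (18.4%), below the 12.3% that were WT-only, with D8 alone then the larger share in HY. Peak by peak, with 50% covered, D0 alone was 55.8% in WT and 58.5% in HY (73.9% and 72.6%), and HY-only at D0 25.2% (34.6%). With summits within 250 bp chained, D8 alone in HY was 25.5% (33.3%), WT-only at D0 21.1% (20%, so no longer below the genome) and WT-only at D8 15.6% (17.6%). With a -log10 q of at least 5, HY-only at D8 was 13% and WT-only 11.8%. For changes in level, a 1.5-fold limit gave 8.96% higher in WT D8 than WT D0 (10.8% over the genome) and 14.9% higher in WT D0 (27.7%). It gave 14.1% for HY D8 over D0 (11.3%), 7.84% for WT over HY at D0 (7%) and 9.59% for HY over WT at D8 (11.9%). A 3-fold limit gave 1.49% higher in WT D0 than WT D8 (4.56%) and 0% for every other share. The genome shares for these were 1.43% (WT D8 over D0), 1.87% (HY D8 over D0) and 5.44% (HY D0 over D8). Between genotypes they ran from 0.0406% to 0.138%. The deposited fold gave 0% higher in WT D8 than WT D0 (1.24% over the genome), in HY D8 than HY D0 (1.33%) and in WT D8 than HY D8 (0.187%). By that fold 5.97% were higher in WT D0 than WT D8 (5.97%) and 6.41% in HY D0 than HY D8 (10.6%). Scaling to open promoters gave 0% higher in HY D0 than WT D0 (1.51%). This scaling shifted the D8 genotype ratio by 0.154 on the log2 scale and the others by less than 0.1. With 50 bp each side of the summit, 8.11% of the sites had the AP-1 heptamer, against 12.2%. Other causes of these moves were not tested. Sites with a pileup near 5 are at the limit of detection.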
